A study of Mus musculus with 3 samples.

Results

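Interferon-stimulated genes, the genes that cells switch on when interferon reaches them, and the genes of the interferon signalling chain were followed in 3 RNA-seq libraries of mouse incisor tissue. The set held 54 genes of the 19381 listed, chosen by gene symbol, and each of the 54 symbols matched 1 row. It comprised 22 antiviral effectors, 8 enzymes that attach or remove ISG15, ubiquitin or ADP-ribose, 11 interferon-inducible GTPases, 4 nucleic acid sensors, and 9 receptors and signal transducers. The genes were listed after it was known that interferon genes stood high in 1 of these libraries, so the order of the libraries is given as a description and without a test.

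All 3 libraries were labelled DKO. The mice carried Gli1-CreER, a tamoxifen-inducible Cre recombinase expressed from the Gli1 promoter, together with floxed alleles of both Arid1a and Arid1b, which encode DNA-binding subunits, used in place of each other, of a BAF-type chromatin remodeler. They received tamoxifen by intraperitoneal injection at 1.5 mg per 10 g of body weight, and the proximal incisor was taken 4 days later at the age of 1 month. Recombination was limited to cells that express Gli1 and their progeny, whereas RNA came from the whole piece of tissue, so each value mixes recombined and other cells. Mice without the deletions were not analysed here, and nothing in the text below compares genotypes. The labels do not say whether the libraries came from separate animals, and the spread between them may be technical.

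In interferon signalling, type I interferons bind the Ifnar1 and Ifnar2 receptor pair and interferon gamma binds Ifngr1 and Ifngr2. Receptor-bound kinases then activate transcription factors. Stat2 and Irf9 take part in binding interferon-stimulated response elements (ISRE) in the promoters of target genes, while interferon gamma acts largely through gamma-activated sites (GAS). Many products of the induced genes recognise or degrade viral RNA, and several, such as Irf7, Stat2 and Irf9, are also parts of the signalling chain itself.

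Gene counts had been scaled by the authors to an equal 75th percentile of 44.7 in each library, with totals of 986401, 958773 and 966163 normalized counts in replicates 1, 2 and 3. About 80% of the values between 1 and 1000 read units (80.5%, 80.2% and 79.3%) lay within 0.02 of a whole multiple of the smallest value. If that value is 1 read, the libraries held 33863105, 34900701 and 41477689 reads. The same unit gives 50 of the 54 genes a counting error of at most 10% in every library, and the largest was 12.5%, for Oasl1. Markers of dental mesenchyme were abundant, with Prrx1 at 559, 675 and 623 and Vim at 953, 958 and 1166 normalized counts. All 12 mesenchyme markers had a mean of at least 10. Between highest and lowest library, 2 of them spanned more than 1 on the log2(normalized count + 1) scale. The share of all 10388 genes at that mean was 1.68%. The 2 were the collagen gene Col1a1, at 9950, 4719 and 13715, and Dspp, made by the dentin-forming odontoblasts, at 4959, 1072 and 3489. Of 9 dental epithelium markers, 8 were highest in replicate 2, against 34.2% of the 10388 genes with a mean of at least 10. Of the 9, 3 spanned more than 1, against 1.68% of those genes, such as the enamel gene Amelx at 54.6, 145 and 66.0. All 8 endothelial markers were highest in replicate 3, against 34.6% of those genes, and none spanned more than 1. The part of these differences in the interferon values was not tested. The ribosomal RNA gene CT010467.1 took 7.27% of the total in replicate 1, 4.98% in replicate 2 and 4.66% in replicate 3, and the 15 mitochondrial genes took 5.11%, 4.14% and 4.16%.

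Replicate 1 held more interferon-stimulated RNA than the other libraries. The 54 genes summed to 5298 normalized counts in replicate 1, 2017 in replicate 2 and 2111 in replicate 3, or 0.537%, 0.210% and 0.219% of the library totals. Replicate 1 was the highest library for 49 of the 54 genes, replicate 3 for 5 and replicate 2 for 0, against 35.3%, 30.4% and 34.3% of all listed genes that were highest in replicates 1, 3 and 2. The median ratio of replicate 1 to replicate 2 was 2.93 and that of replicate 1 to replicate 3 was 2.76, while replicates 2 and 3 had a median ratio of 1.00.

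Without a filter, 45 of the 54 genes spanned more than 1 on the log2(normalized count + 1) scale between their highest and lowest library, against 2.56% of all listed genes. A mean of at least 10 normalized counts was reached by 49 of the 54, of which 44 were highest in replicate 1, against 31.2% of the 10388 genes at that mean. Of these 49, 40 spanned more than 1, against 1.68% of the 10388. The median span of the 49 was 1.50, against 0.19 for all 10388 genes. In 36 of the 49, replicate 1 exceeded each of the others by more than 1 on this scale, which 0.587% of all genes did. Replicates 2 and 3 were more than 1 apart for 1 of the 49, Gvin1, against 0.51% of those genes. Since 8 of the 49 reached a mean of 10 only through their highest library, spans were also taken for genes whose 2 lower libraries averaged at least 10. There 32 of 41 spanned more than 1, against 1.38% of all genes. The members had been listed with this pattern known, so these counts describe them and support nothing further.

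**Figure D1:**
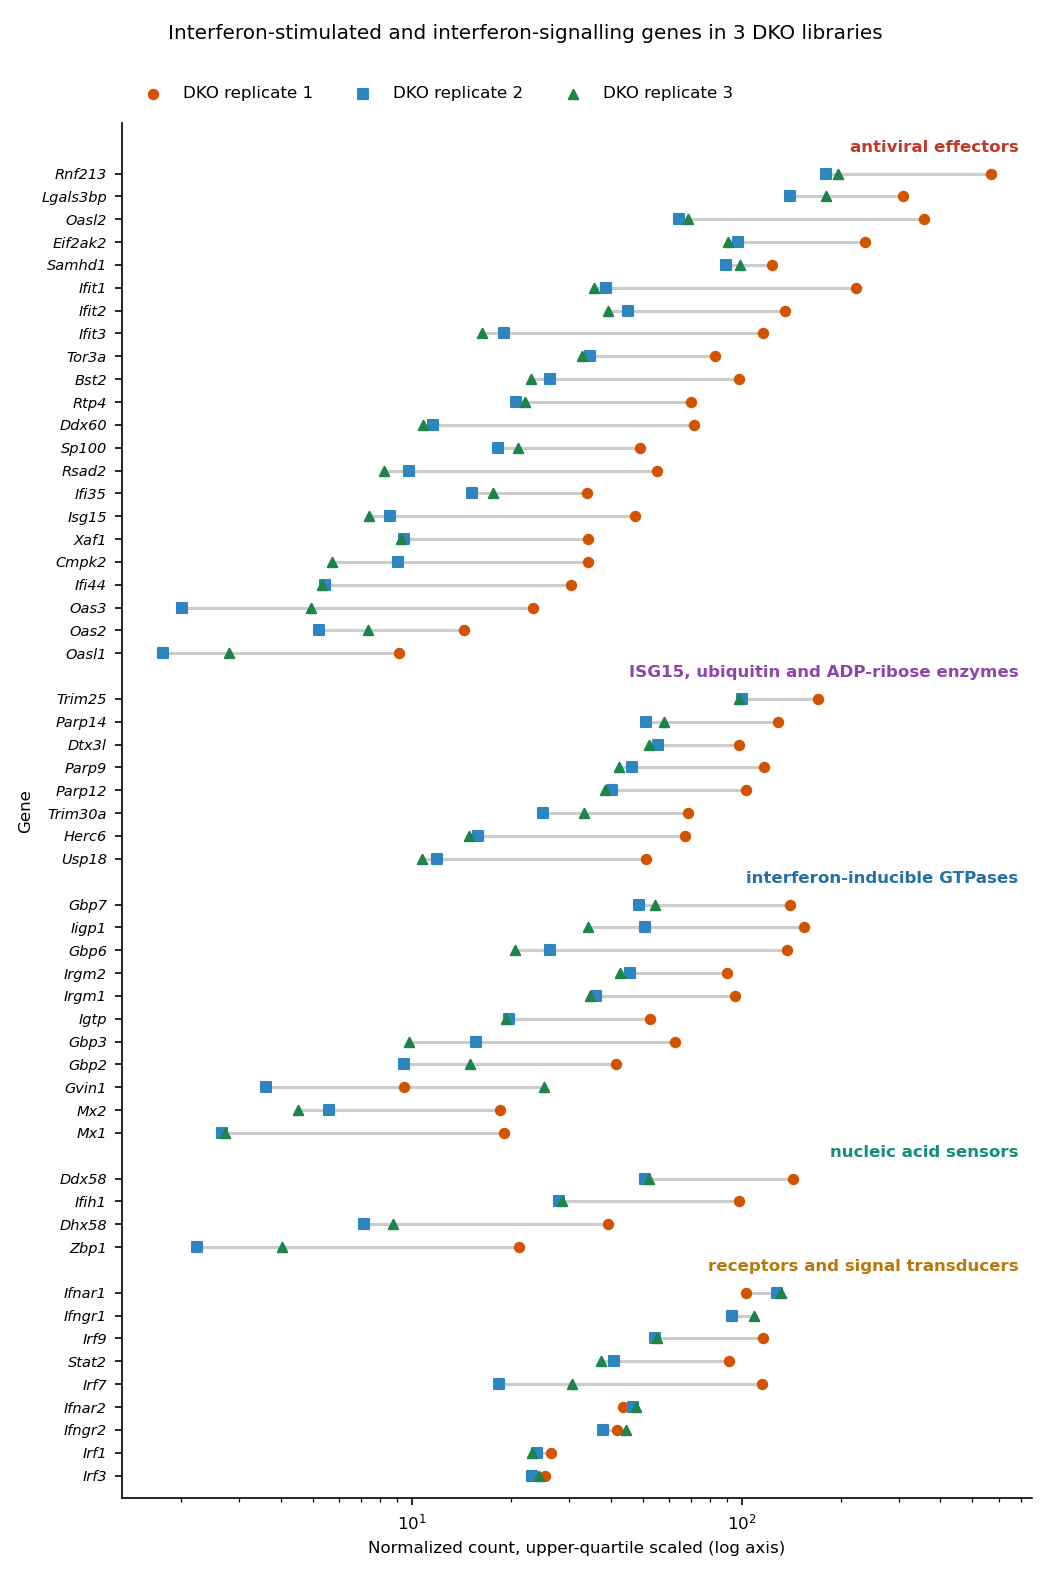
Normalized counts of the 54 genes in the 3 DKO libraries, 1 row per gene ordered by mean within its class, on a log axis; orange circles are replicate 1, blue squares replicate 2 and green triangles replicate 3. Replicate 1 lies to the right of the other libraries for 49 genes, and the receptors Ifnar1, Ifnar2, Ifngr1 and Ifngr2 show little spread.

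**Figure D2:**
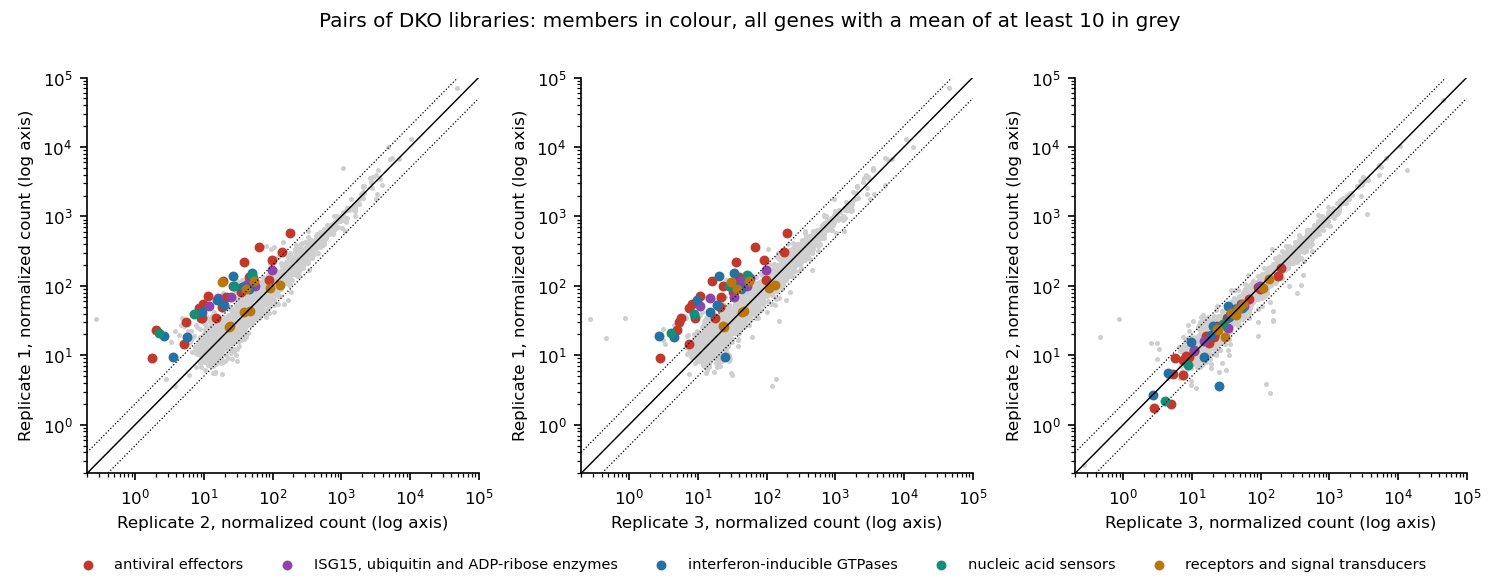
Normalized counts of 1 library against another for the 3 pairs of libraries, on log axes; colours mark the classes of the 54 genes, grey points are the 10388 genes whose mean was 10 or more, the solid line marks equality and the dotted lines a 2-fold difference. Most members lie above the upper dotted line in both panels with replicate 1 and near the solid line in the panel of replicates 2 and 3.

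Promoter sequences were examined because these genes are known as direct targets of a shared set of factors. RefSeq promoters of the GRCm38.p6 assembly, which is the mm10 build, cover 250 bases before and 50 after the annotated start, 300 bases in all, and were matched by symbol for 41 of the 54 genes, with 47 promoters. The ISRE core was searched on both strands as GAAA, any 2 bases and GAAA again, and the GAS core as TTCNNNGAA, which reads the same on both strands. The ISRE core was present in 19 of the 47 promoters (40.4%), against 3.44% of all 32851 promoters, and the GAS core in 11 of 47 (23.4%), against 8.30%. By class, the ISRE core was found in 6 of 6 GTPase genes with a promoter, 2 of 2 sensors, 8 of 19 antiviral effectors, 1 of 5 modifying enzymes (Trim30a) and 1 of 9 receptors and transducers (Stat2). Of 27 ISRE matches, 23 began before the start, and 22 of these lay within its last 160 bases. The 2 motifs overlapped only in Bst2 among these promoters. A match is a string of letters and not a measured binding site.

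A few promoters are shown because they span the patterns found. Isg15 has 3 overlapping ISRE cores on the coding strand. Ifit1 and Ifit3 each carry 2 cores in the reverse orientation, and Rsad2 carries 1. Igtp and Irgm2 hold a GAS core followed after 2 bases by an ISRE core, and the window of 21 bases that covers both is the same at 20 positions in the pair. Ifnar1, a receptor gene, has no ISRE core and 1 GAS core at its start. Capitals mark matches to either core, and sequences run 5′ to 3′ on the gene's strand.
Isg15 (chr4:156200769-156201068, minus strand): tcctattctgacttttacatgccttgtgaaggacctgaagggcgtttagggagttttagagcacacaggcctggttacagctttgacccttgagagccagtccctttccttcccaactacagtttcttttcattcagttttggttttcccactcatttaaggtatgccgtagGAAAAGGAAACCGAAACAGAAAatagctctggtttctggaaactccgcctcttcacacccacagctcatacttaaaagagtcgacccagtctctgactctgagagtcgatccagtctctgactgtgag
Ifit1 (chr19:34640639-34640938, plus strand): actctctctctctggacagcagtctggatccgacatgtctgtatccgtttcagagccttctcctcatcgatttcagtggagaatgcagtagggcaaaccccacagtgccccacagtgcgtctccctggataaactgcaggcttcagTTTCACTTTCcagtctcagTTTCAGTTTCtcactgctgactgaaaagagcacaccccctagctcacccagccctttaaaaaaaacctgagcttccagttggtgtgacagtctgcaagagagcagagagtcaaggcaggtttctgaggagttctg
Ifit3 (chr19:34583279-34583578, plus strand): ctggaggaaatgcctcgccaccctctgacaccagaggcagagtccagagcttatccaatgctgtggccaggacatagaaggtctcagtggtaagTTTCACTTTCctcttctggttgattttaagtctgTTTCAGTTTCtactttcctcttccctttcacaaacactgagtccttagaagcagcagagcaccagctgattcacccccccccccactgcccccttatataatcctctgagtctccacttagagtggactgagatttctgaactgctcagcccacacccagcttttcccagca
Rsad2 (chr12:26456403-26456702, minus strand): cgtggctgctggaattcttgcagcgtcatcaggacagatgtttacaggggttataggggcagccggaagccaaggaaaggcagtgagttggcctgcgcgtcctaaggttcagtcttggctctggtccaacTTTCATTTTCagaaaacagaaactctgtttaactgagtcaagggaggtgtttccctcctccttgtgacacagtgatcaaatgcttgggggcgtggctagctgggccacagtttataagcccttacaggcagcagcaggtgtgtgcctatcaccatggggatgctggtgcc
Igtp (chr11:58199306-58199605, plus strand): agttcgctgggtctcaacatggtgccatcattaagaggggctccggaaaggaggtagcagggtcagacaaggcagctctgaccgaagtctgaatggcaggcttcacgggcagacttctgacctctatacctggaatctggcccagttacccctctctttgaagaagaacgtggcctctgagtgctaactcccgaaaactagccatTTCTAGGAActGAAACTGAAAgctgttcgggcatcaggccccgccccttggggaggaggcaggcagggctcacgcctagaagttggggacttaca
Irgm2 (chr11:58214727-58215026, plus strand): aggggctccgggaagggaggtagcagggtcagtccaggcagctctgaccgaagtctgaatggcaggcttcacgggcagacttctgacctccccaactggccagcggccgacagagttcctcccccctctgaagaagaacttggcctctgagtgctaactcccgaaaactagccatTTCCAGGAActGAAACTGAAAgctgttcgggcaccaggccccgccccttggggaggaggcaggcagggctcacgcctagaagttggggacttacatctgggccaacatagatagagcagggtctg
Ifnar1 (chr16:91484965-91485264, plus strand): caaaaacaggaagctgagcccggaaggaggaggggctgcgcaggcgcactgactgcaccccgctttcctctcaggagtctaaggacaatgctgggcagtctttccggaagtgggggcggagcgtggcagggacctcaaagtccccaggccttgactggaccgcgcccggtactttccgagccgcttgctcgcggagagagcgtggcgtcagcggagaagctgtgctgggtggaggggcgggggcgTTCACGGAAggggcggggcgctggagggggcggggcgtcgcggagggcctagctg

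The ISRE core was set beside the spread between libraries, as a description over genes that share their libraries. The 18 members with the core spanned 1.07 to 3.01 on the log2 scale, with a median of 1.90, and all 18 were highest in replicate 1. The 23 members with a promoter but without these letters in the window spanned 0.12 to 2.59, with a median of 1.13, and 19 of them were highest in replicate 1. The 2 groups also differ in class. The core was in 6 of 6 GTPase genes with a promoter, and these spanned 1.07 to 2.56. It was in 1 of 9 receptors and transducers, a class with a median span of 0.24. The part of class in the difference between the medians was not tested. Oasl2, Irf7 and Ifi44 were among those without a match that nevertheless spanned more than 2.

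**Figure D3:**
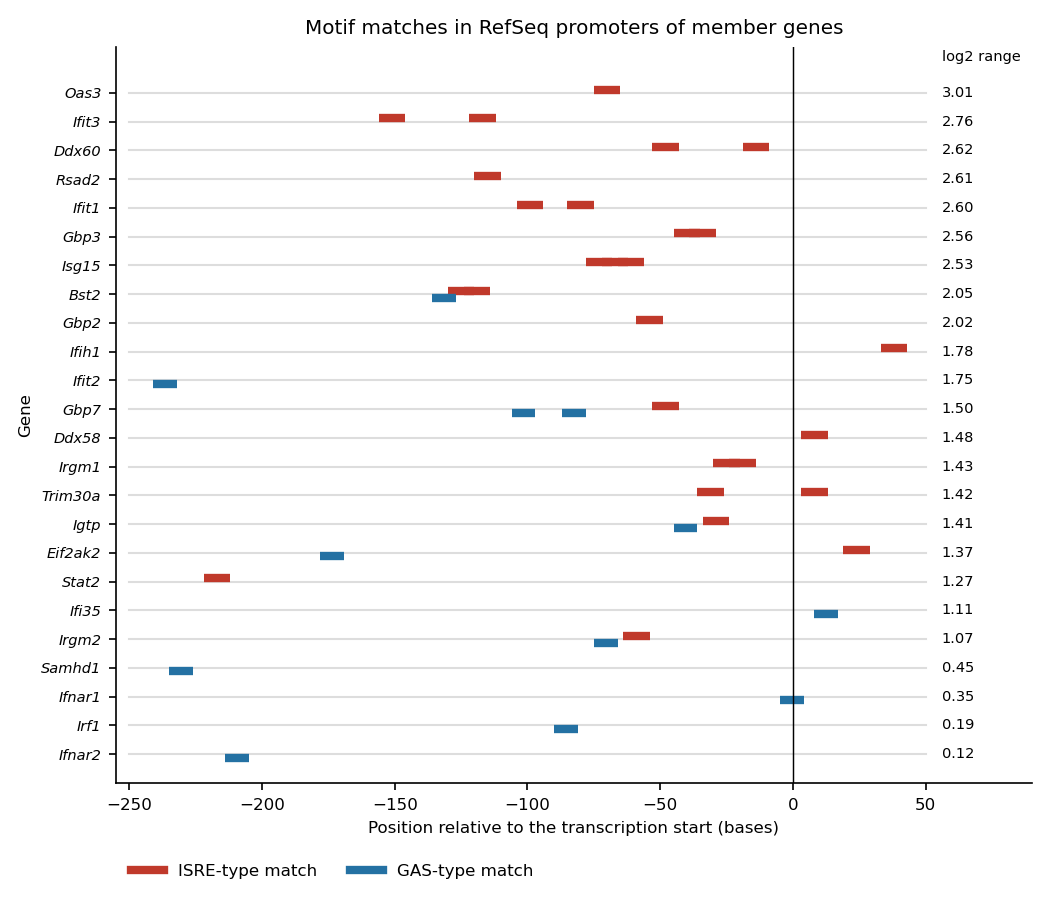
Positions of motif matches relative to the annotated start, in bases, in the promoters of the members with at least 1 match; red bars are ISRE cores, blue bars GAS cores, grey lines the window searched, and the number at the right is the log2 span of the gene over the 3 libraries. Genes with an ISRE core span at least 1.07, and the 4 genes at the bottom, with spans of 0.45 or less, have a GAS core only. Ifit2 and Ifi35, with spans of 1.75 and 1.11, also have a GAS core only.

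All 22 antiviral effectors were highest in replicate 1, with ratios of replicate 1 to replicate 2 from 1.37 for Samhd1 to 11.6 for Oas3 and of replicate 1 to replicate 3 from 1.24 for Samhd1 to 7.13 for Ifit3. Isg15 (chromosome 4, 156199455 to 156200797, mm10), a ubiquitin-like protein that is joined to other proteins, stood at 47.5, 8.57 and 7.41 normalized counts in replicates 1, 2 and 3. Its highest and lowest libraries differed 6.41-fold, and its values were whole multiples of the smallest value in all 3 libraries.

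The Ifit genes encode RNA-binding proteins that hold back translation of viral RNA, and they lie side by side on chromosome 19. Ifit1 was at 222, 38.7 and 35.6 normalized counts, Ifit2 at 135, 45.2 and 39.4, and Ifit3 at 116, 19.1 and 16.3. All 3 were several-fold higher in replicate 1, and replicates 2 and 3 lay close together. The value of Ifit3 is uncertain, because the near-identical Ifit3b can share its reads, and neither Ifit1 nor Ifit3 had a whole multiple of the smallest value in any library. Ifit3b itself was at 34.1, 4.76 and 6.82.

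Rsad2 and Cmpk2 are neighbours on chromosome 12 that read away from each other, 12751 bases apart. Rsad2 encodes viperin, which makes a chain-terminating nucleotide from the product of the kinase that Cmpk2 encodes. Rsad2 was at 55.5, 9.78 and 8.25 and Cmpk2 at 34.2, 9.07 and 5.73 normalized counts. Both were highest in replicate 1 and reached a mean of 10 through that library alone.

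The oligoadenylate synthetase family, whose members sense double-stranded RNA or resemble the enzymes that do, ranged widely in level. Oasl2 was the strongest on the per-length scale, with a mean of 25.6 normalized counts per kilobase of exon, against 1.42 for Oas3, 1.75 for Oasl1 and 2.02 for Oas2. In normalized counts Oasl2 was at 357, 64.4 and 68.8. Oas3 was at 23.3, 2.01 and 4.94, the widest span of the 54 genes (3.01 on the log2 scale). Oas2 was at 14.4, 5.22 and 7.34 and Oasl1 at 9.15, 1.76 and 2.80, and neither reached a mean of 10. All 4 were highest in replicate 1 and lowest in replicate 2.

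The other effectors were also highest in replicate 1, with the lowest value in replicate 2 for some and in replicate 3 for others. Bst2, or tetherin, which holds budding virus at the cell surface, was at 98.1, 26.3 and 22.9, and Ddx60, a helicase linked to RNA sensing, at 71.7, 11.6 and 10.8 normalized counts. Eif2ak2, the kinase PKR that stops translation on binding double-stranded RNA, was at 236, 97.4 and 90.8. Rnf213, a very large ubiquitin ligase, had the highest mean in normalized counts, at 568, 180 and 196, but its 16888 bases of exon placed it at 18.6 per kilobase. Ifi44 was at 30.4, 5.47 and 5.33, Xaf1 at 34.1, 9.48 and 9.25, and Rtp4 at 70.1, 20.7 and 22.1.

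Narrower spans also occurred in this class. Samhd1, which breaks down deoxynucleotides, was at 123, 89.8 and 99.0 normalized counts, a span of 0.45. Lgals3bp, a secreted glycoprotein, was at 307, 140 and 180.0 and had the highest level per length of the 54 genes, 73.4 per kilobase. Ifi35 was at 34.1, 15.2 and 17.7, Sp100 at 49.1, 18.2 and 20.9, and Tor3a at 82.8, 34.5 and 32.7.

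The 8 enzymes of ISG15, ubiquitin and ADP-ribose attachment were all highest in replicate 1, with a median log2 span of 1.41. Usp18, which removes ISG15 and restrains signalling at the type I receptor, was at 51.4, 11.9 and 10.7 normalized counts, and Herc6, the main ISG15 ligase of mice, at 67.4, 15.9 and 14.9. The widest spans of the class were those of Usp18 and Herc6, 2.16 and 2.11. Trim25, a ubiquitin ligase that acts on RNA sensing and is expressed without interferon, was at 170, 99.8 and 98.3, the narrowest span of the class at 0.78. Trim30a, a repressor of inflammatory signalling, was at 68.5, 25.0 and 33.2.

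The ADP-ribosyltransferases Parp9, Parp12 and Parp14 spanned 1.43, 1.39 and 1.31. Parp9 and its partner Dtx3l lie on opposite strands of chromosome 16 and overlap by 682 bases at their annotated starts. Parp9 was at 116, 46.5 and 42.5 normalized counts and Dtx3l at 98.4, 55.6 and 52.3, with a span of 0.90. The strand setting of the counting is not given in the sources used here, but the values of both were whole multiples of the smallest value in all 3 libraries. Parp12 was at 103, 40.4 and 38.6, and Parp14 at 129, 51.4 and 58.2.

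The interferon-inducible GTPases, which act on viral particles or on the membranes around intracellular pathogens, were highest in replicate 1 in 10 of 11 cases. The guanylate-binding proteins Gbp2, Gbp3 and Gbp7 lie within 1 cluster on chromosome 3, and Gbp6 is on chromosome 5. Gbp6 was at 137, 26.2 and 20.6 normalized counts and Gbp3 at 62.5, 15.6 and 9.78. Gbp2 was at 41.5, 9.48 and 15.004, and Gbp7 at 140, 48.7 and 54.4. Replicate 1 was 2.57- to 6.68-fold above replicate 3 in these 4 genes. Gene copies within the family are alike, so reads may have been divided among them, and 3 of the 4 had no whole multiple of the smallest value in any library.

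The immunity-related GTPases Irgm1, Irgm2, Igtp and Iigp1 spanned 1.07 to 2.14 on the log2 scale. Irgm1 was at 95.5, 36.2 and 34.7 normalized counts, Irgm2 at 90.3, 45.7 and 42.6, Igtp at 52.7, 19.6 and 19.2, and Iigp1 at 154, 50.9 and 34.1. Irgm2 and Igtp, whose promoters are printed above, overlap on chromosome 11 by 7974 bases in the deposited coordinates, and neither had whole multiples in any library, so their values are uncertain. Irgm1, elsewhere on that chromosome and near the related GTPase genes Tgtp2 and Ifi47, had whole multiples in all 3.

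Mx1 and Mx2, dynamin-like antiviral GTPases listed as polymorphic pseudogenes in the deposited table, were low. Mx1 was at 19.1, 2.66 and 2.72 and Mx2 at 18.5, 5.61 and 4.50 normalized counts. Gvin1, a very large inducible GTPase with close copies nearby, was the exception of the class, at 9.49, 3.62 and 25.1, highest in replicate 3. Its values were not whole multiples in any library.

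All 4 nucleic acid sensors were highest in replicate 1. Ddx58, which encodes RIG-I, was at 143, 50.8 and 52.2 normalized counts, and Ifih1, which encodes MDA5, at 98.02, 27.8 and 28.6. Both recognise foreign RNA in the cytoplasm, and replicate 1 was 2.82- and 3.52-fold above replicate 2. Dhx58, encoding LGP2, a regulator of the other sensors, was at 39.4, 7.17 and 8.78. Zbp1, a sensor of Z-form nucleic acid that can trigger necroptosis, was at 21.1, 2.23 and 4.03 and did not reach a mean of 10.

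The receptors and part of the signalling chain varied little between libraries. The median log2 span of the 9 genes was 0.24, close to the 0.19 of all genes at a mean of at least 10. Of the 9, however, 3 spanned more than 1, against 1.68% of those genes. Ifnar1 was at 103, 128 and 131 normalized counts (121 ± 15.5, SD, n = 3) and was lowest in replicate 1. Ifnar2 was at 43.7, 46.8 and 47.6 (46.0 ± 2.04), Ifngr1 at 92.5, 93.4 and 109 (98.4 ± 9.39), and Ifngr2 at 41.7, 38.0 and 44.6 (41.4 ± 3.26). Their coefficients of variation were 12.9%, 4.44%, 9.54% and 7.88%. Ifnar2, Ifnar1 and Ifngr2 lie in a row on chromosome 16. Per kilobase of exon, Ifngr1 was highest at 34.6, followed by Ifnar1 at 20.3, Ifnar2 at 13.8 and Ifngr2 at 11.001 normalized counts.

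Of the transcription factors, Irf7, Irf9 and Stat2 were highest in replicate 1, each more than 1 above both other libraries on the log2 scale. Irf7, which amplifies type I interferon production, was at 115, 18.3 and 30.5 normalized counts. Irf7 overlaps Phrf1 on the other strand, so some of its reads cannot be assigned with certainty. Irf9 was at 116, 54.4 and 55.1, a span of 1.07. It overlaps Rnf31 on the same strand and had no whole multiple of the smallest value in any library, so its values are uncertain too. Stat2, its partner in the ISRE-binding complex, was at 91.2, 40.97 and 37.3. Irf1, which interferon gamma induces rapidly in many cells, was at 26.4, 24.0 and 23.1 (24.5 ± 1.70, SD, n = 3), and Irf3, which is expressed constitutively and activated by phosphorylation, at 25.4, 23.1 and 24.3 (24.2 ± 1.15).

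**Figure D4:**
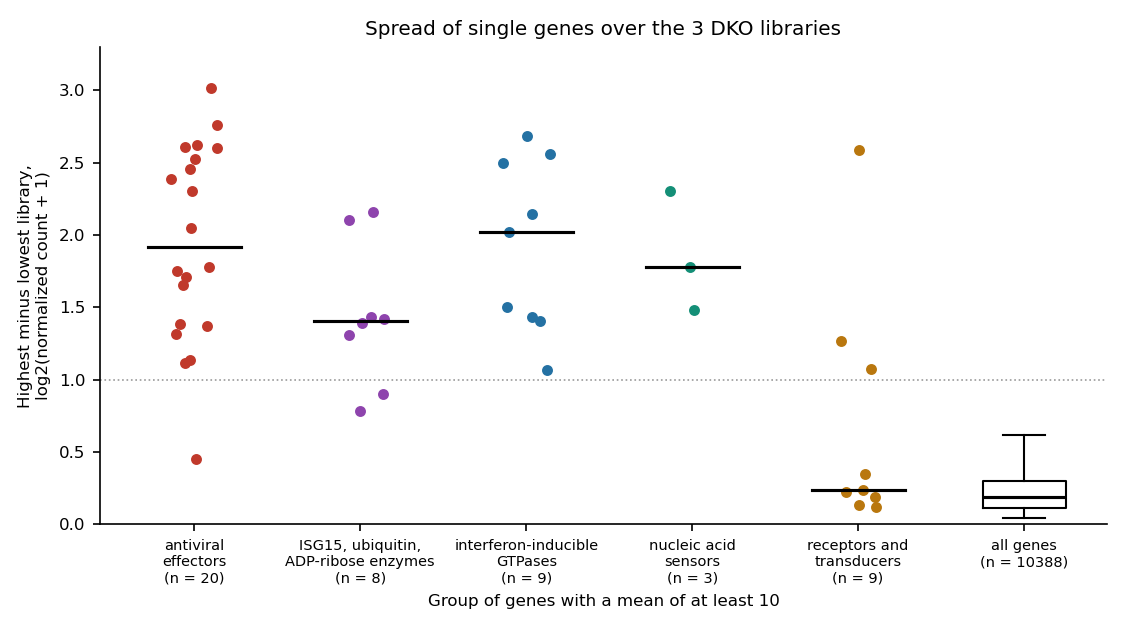
Difference between the highest and the lowest of the 3 DKO libraries on the log2(normalized count + 1) scale for each member with a mean of at least 10, by class; thick lines are medians, the box shows the quartiles of all 10388 genes with whiskers at their 5th and 95th percentiles, and the dotted line marks 1. Class medians are 1.91, 1.41, 2.02, 1.78 and 0.24 from left to right, and that of all genes is 0.19.

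Other genes of the pathway, from lists named by function, are given next. Of 63 further interferon-stimulated genes with a value, 43 reached a mean of 10. Of the 43, 42 were highest in replicate 1, against 31.2% of all genes at that mean. A span above 1 was found in 22 of the 43, against 1.68% of all genes at that mean. Ifitm3, an inhibitor of viral entry, was at 263, 122 and 140 normalized counts, Ly6e at 206, 92.0 and 109, Nlrc5, the activator of class I genes, at 27.0, 4.73 and 4.50, and Slfn5 at 116, 44.1 and 56.04. Ifitm2, of the same gene family as Ifitm3, was at 131, 134 and 154 and was highest in replicate 3. These family members are alike in sequence, and neither had a whole multiple of the smallest value in any library. Of the 7 interferon-induced chemokines, none reached a mean of 10. All 7 were highest in replicate 1, against 35.3% of all listed genes, with Cxcl10, which attracts T cells, at 19.3, 5.05 and 5.15. Interferon genes themselves, 21 symbols, had no matched row and were not analysed here.

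Of the further kinases and regulators, the receptor kinase Jak1 was at 201, 196 and 211 normalized counts, and the phosphatase Ptpn11 at 176, 186 and 197, spans of 0.11 and 0.16. Of 24 further sensing genes with a value, 17 reached a mean of 10. None of the 17 spanned more than 1, which is near the 1.68% of all genes at that mean. Below that mean, Tlr9, an endosomal DNA receptor named after its values were seen, spanned 1.10, at 8.42, 3.41 and 5.59. Traf6, a ubiquitin ligase downstream of Toll-like receptors, was at 54.4, 49.0 and 51.0, and Unc93b1, which carries nucleic acid-sensing Toll-like receptors to endosomes, at 56.5, 46.8 and 61.4. The widest of the 17, singled out after its values were seen, was the endosomal RNA receptor Tlr3, at 50.6, 31.4 and 27.8. In class I antigen presentation, 12 of 13 genes at a mean of 10 were highest in replicate 1, against 31.2% of all genes at that mean. A span above 1 was found in 5 of the 13, against 1.68%. H2-T23 was at 80.8, 29.7 and 32.6 and B2m at 429, 295 and 348.

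Markers of cells that could bring interferon-stimulated RNA were set beside these values. The 12 macrophage markers summed to 1019, 1318 and 1396 normalized counts in replicates 1, 2 and 3. Of the 11 at a mean of 10, 9 were lowest in replicate 1, against 38.1% of all genes at that mean. Among the 9 were Csf1r at 173, 228 and 246 and Lyz2 at 204, 285 and 308. The other two, Aif1 at 18.6, 17.1 and 16.3 and Fcgr1, which interferon also induces, at 27.1, 18.4 and 19.3, were highest in replicate 1 and are named after their values were seen. Lymphocyte and natural killer cell markers were near 0, with 5 of the 6 measured at or below 0.577 in every library, and the pan-leukocyte gene Ptprc was at 53.7, 67.6 and 65.2. Plasmacytoid dendritic cells are known as a source of type I interferon, and 4 of their 7 markers had a row. None of the 4 was highest in replicate 1, against 35.3% of all listed genes, and 4 genes are too few to read against that share. Siglech was at 1.92, 0.85 and 2.35 and Bcl11a at 90.5, 105 and 94.8. Spib was at 0.23, 0.33 and 0.56 and Ly6d at 0.23, 0.16 and 0.33. Neutrophil markers did not exceed 2.94. The smallest listed values were 0.0291, 0.0275 and 0.0233 in replicates 1, 2 and 3, so no marker with a row could be at 0. Rows were present for 7 of 9 neutrophil markers and for 6 of 11 lymphocyte and natural killer cell markers. In bulk tissue, fewer cells of a type and less RNA per cell cannot be told apart. The part of these cells, and of the higher ribosomal and mitochondrial share of replicate 1, in the interferon values was not tested.

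**Figure D5:**
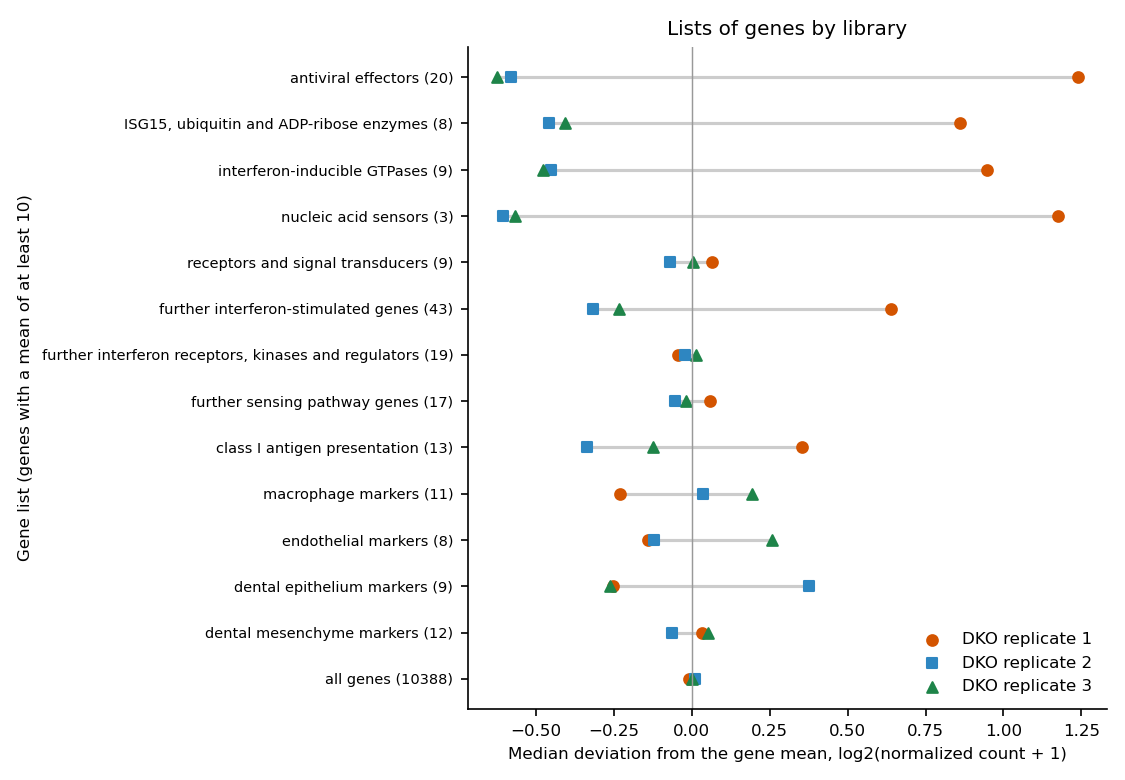
Median deviation of the genes of each list from their own mean over the 3 DKO libraries, on the log2(normalized count + 1) scale, for lists with at least 3 genes at a mean of at least 10 (number in parentheses); colours and symbols mark the libraries. Antiviral effectors lie at 1.24 in replicate 1, -0.58 in replicate 2 and -0.63 in replicate 3, whereas macrophage markers lie at -0.23, 0.04 and 0.19.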

How the data were processed

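Bulk RNA-seq of 3 DKO libraries was used. The deposited values are normalized counts, treated as gene-level signal, that the authors had scaled to an equal 75th percentile without division by gene length. The submitters' processing notes name TopHat2 2.0.8 and mm10. For the counter, annotation, strand setting and filter, the entry is: not given in the sources used here. Each column was assigned through the library number that its name shares with the sample's description, and 0 other columns of per-sample values were present. About 80% of values were whole multiples of the smallest value, too few to treat all values as reads, so no count model was used.

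Logarithms were log2(value + 1). The span of a gene was its highest minus its lowest library. Exon lengths were the merged GENCODE M21 exons. With 1 group and members and lists chosen with earlier results of these data known, no test was made. All 54 members could be named, and from every other list the 4 highest and those spanning more than 1 at a mean of at least 10. The 10 nearest profiles could be named too, and genes named beyond that rule are identified. Alternatives changed the pseudocount, filter, scaling, fold and libraries. Scripts (Python 3.11.15, pandas 2.3.3) were tested on simulated data. Counting errors cover counting alone, and PCR reads are not independent molecules. Promoters were those of RefSeq.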

Additional observations from a re-analysis of the deposited data

How the results depend on the processing

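Leaving out libraries 1 at a time gave 1 to 41 members with a span above 1, against 40 with all 3, and median spans of 0.12 to 1.56, against 1.50. The low ends came without replicate 1, where Gvin1 was the member left among 42, against 0.445% of all genes, and the median of all genes was 0.11. The median level of the 54 genes was 24.5 normalized counts without replicate 1, against 47.6, and their mean share of the total was 0.214%, against 0.322%. At a mean of at least 100, 4 of 7 members spanned more than 1, against 0.903% of 2105 genes, with fewer genes passing. Division by exon length changed the unit and gave a median level of 11.2 normalized counts per kilobase, against 47.6 undivided. A pseudocount of 0.1 gave 40 of 49 (all genes 1.85%), 10 gave 37 of 49 (0.963%), no filter 45 of 54 (2.56%), equal totals 39 of 48 (1.68%), and removal of ribosomal RNA and mitochondrial genes 43 of 52 (1.83%). The filter on the 2 lower libraries, chosen after seeing the data, gave 32 of 41 (1.38%). The ISRE core was found in 18 of 41 members, against 3.99% of 27025 genes with a promoter, and again in 18 when it had to be followed by C or G, against 2.23%. No paired analysis was possible because there was 1 group. Depth limits statements on Oasl1, Oas3, Zbp1 and Mx1, whose counting errors reach 10.2% to 12.5%.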

Other observations

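Genes outside the 54 with the same order of libraries were looked for among the 10388 with a mean of at least 10. In 61 genes replicate 1 exceeded each of the other libraries by more than 1 on the log2 scale. Of these, 36 were members, 16 were on the further interferon and antigen presentation lists, and 9 were on neither. The lists are not complete, so a gene on neither can still belong to these pathways. The 9, chosen after their values were seen, were F830016B08Rik, Fgl2, Gm20559, Gm4070, Gm6548, H2-T22, Rpl15-ps6, Scp2-ps2 and Xdh. Rpl15-ps6, a ribosomal protein pseudogene, was at 33.5, 0.27 and 0.27 normalized counts in replicates 1, 2 and 3, the widest contrast among them.

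The 10 other genes whose 3 deviations lay nearest to the median profile of the members (0.95, -0.50 and -0.47 in replicates 1, 2 and 3) were Gm20559, Xdh, H2-T23, Fgl2, Gbp5, Uba7, Gm6548, Scp2-ps2, Mndal and Oas1a, at distances of 0.087 to 0.277 on the log2 scale. Uba7, the enzyme that activates ISG15 for attachment, was at 48.1, 18.8 and 20.4, and Xdh, xanthine dehydrogenase, at 19.1, 7.12 and 6.92. Likeness over 3 libraries is a description of these libraries.

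The ISRE core was also set beside the spans of genes outside the 54. Among those with a mean of at least 10 and a RefSeq promoter, 289 held it and 7857 did not. A span above 1 was found in 16 of the 289 (5.54%) and in 67 of the 7857 (0.853%), and replicate 1 was highest in 40.1% and 30.5%. Interferon-stimulated genes outside the 54 were not removed, and the widest span of the 289, 2.61, was that of Ifit3b. Median spans were 0.21 and 0.19. The difference was not tested, because genes within a library are not replicates.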
